A study of Mus musculus with 18 samples.

Results

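Probes for the variable segments of the antibody kappa light chain (IGKV probes) were examined in mouse aorta. An IGKV probe was kept if its target name began with IGKV and its detection score was over 0.95 on 5 or more of 18 arrays. This left 49 of 145 IGKV probes, among 21434 of 46624 probes on the array that met the same detection rule. The samples were whole aortas of male ApoE-/- mice, aged 13 to 14 weeks at the start, with RNA of 1 mouse on each array and no pooling. All mice lacked apolipoprotein E, a lipid-carrying protein, the background in which angiotensin II infusion gives aortic aneurysms in some animals and not in others. The AAA group (n = 5) received angiotensin II at 1.44 µg/kg/min for 4 weeks and developed an abdominal aortic aneurysm (AAA). The no AAA group (n = 7) received the same infusion without developing an aneurysm, and the saline group (n = 6) received saline for the same time. The comparison of AAA with no AAA aortas addresses which transcripts differ with aneurysm formation among infused mice, and the comparisons with saline show where each infused group lay relative to mice that were not given the peptide.

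An antibody is built from heavy chains and light chains, and in mice most light chains are of the kappa type. A developing B cell joins a single variable (V) segment to a joining segment, and splicing adds the constant segment. A transcript thus carries the V segment that its B cell joined. Different B cell clones can join the same segment, so a V segment does not identify a clone. Resting B cells hold modest amounts of light chain RNA, and plasma cells, which secrete antibody, hold very large amounts. The V segments fall into families by sequence, named by the number before the dash (IGKV4-61 belongs to family 4). Members of a family resemble each other, so a probe for 1 segment can also bind transcripts of its relatives, and probes of a family were not treated as independent. A whole aorta holds the vessel wall with whatever leukocytes, adventitial tissue and fat come with it. In such bulk RNA, fewer cells of a type and less RNA per cell cannot be told apart.

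RefSeq (GRCm38.p6) held 48 of the 49 IGKV names, 46 as V segments and 2 as V pseudogenes (IGKV8-31 and IGKV9-119), and IGKV4-52 had no match. Of the other 96 IGKV probes, 46 were V segments, 45 were pseudogenes and 5 had no match. Among those 96, 56 were detected on no array, and the rest on 1 to 4 arrays. The rule left 9 IGKV probes just outside, each detected on 4 arrays, of which IGKV4-63 reached 5.19, IGKV4-77 reached 3.31 and IGKV2-109 reached 2.95, all in AAA 3. Just inside it were 6 probes detected on 5 arrays (IGKV3-3, IGKV3-4, IGKV4-52, IGKV5-39, IGKV9-119 and IGKV19-93), with highest levels between 0.32 for IGKV3-3 and 6.90 for IGKV5-39. Only 8 of the 49 were detected on all 18 arrays. A level here is the log2 of a probe's signal over the median signal of its array, so 0 is the array median, which lay near background since an array detected 40.0 to 45.2% of its probes. A difference is a difference of such levels. Probes differ in how well they bind, so levels were compared between aortas and not between probes.

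BeadChip 1 held the 6 saline arrays, BeadChip 2 held no AAA 1 to 6, and BeadChip 3 held AAA 1 to 5 beside no AAA 7. For saline, BeadChip and group therefore cannot be told apart. Median signals ranged from 127.6 to 135.2 in AAA aortas, 122.0 to 142.6 in no AAA aortas, and 108.1 to 126.8 in the saline aortas, and an array detected 18647 to 21052 probes. A member's level rested on 13 to 87 beads per array (median 35), and the bead error was 6.65% of the signal at the median and 16.0% at most (whether the deposited error is an SD or an SE over beads is not stated). The number of arrays limits the precision. The median SD of the 49 probes was 1.40 in AAA aortas, 0.27 in no AAA aortas, and 1.49 in the saline aortas, against at most 0.21 in any group over all probes tested. In the kappa signal 4 arrays stood apart: AAA 3 and AAA 4 within AAA, saline 2 within saline, and no AAA 7, which had the lowest level of the kappa constant probe of all arrays.

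More IGKV probes were detected in every AAA aorta than in any no AAA aorta, and saline aortas spread over both ranges. Of the 145 IGKV probes, 44, 39, 75, 69 and 43 were detected in AAA 1 to 5. In no AAA aortas the number was lowest at 16, had a median of 19 and was highest at 35 (no AAA 3). In saline aortas it was lowest at 16, had a median of 32 and was highest at 76 (saline 2). The median level of the 49 kept probes followed the same order, at 1.31, 0.49, 3.85, 3.00 and 0.69 in AAA 1 to 5, between -0.09 and 0.44 in no AAA (median 0.04) and between 0.01 and 3.76 in saline (median 0.45). Of the 49 probes, 29 were detected in all 5 AAA aortas, 8 in all 7 no AAA aortas and 12 in all 6 saline aortas, and 9 were detected in no aorta of the no AAA group, 1 in none of saline and 0 in none of AAA.

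**Figure D1:**
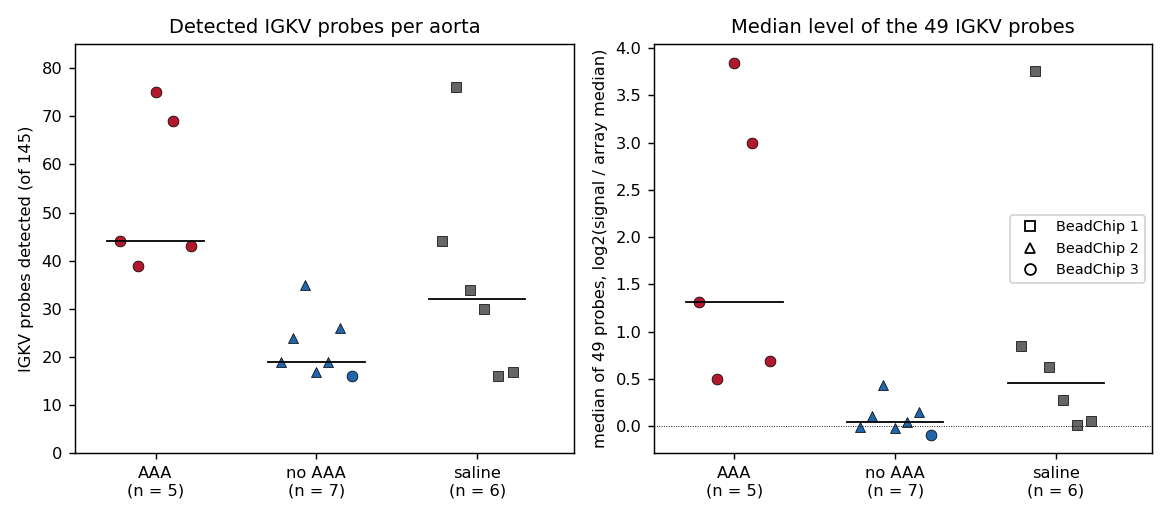
IGKV probes detected per aorta out of 145 (left) and median level of the 49 kept IGKV probes as log2 of signal over array median (right), each point 1 aorta, bars the group medians, symbols the BeadChip. The AAA aortas held 39 to 75 detected IGKV probes, the no AAA aortas 16 to 35 and the saline aortas 16 to 76, with saline 2 far above the other saline aortas.

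The highest value of a probe fell on a few aortas. AAA 3 was the highest aorta for 25 of the 49 probes, saline 2 for 18 and AAA 4 for 3, and saline 1, no AAA 5 and AAA 1 were highest for 1 each. The lowest values fell mostly on no AAA aortas, with 11 probes lowest in no AAA 7 and 10 in no AAA 1.

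Of the 49 IGKV probes, 25 were higher in AAA aortas than in those with no AAA at an adjusted p under 0.05 (limma over all 18 arrays, Benjamini-Hochberg over 21434 probes) and 0 were lower, against 10.8% of all tested probes higher and 8.46% lower. At an unadjusted p under 0.05 and a 2-fold difference, the threshold of the study, 36 were higher and 0 lower by limma's p, against 2.36% and 0.415% of all probes, and 20 were higher and 0 lower by the unequal-variance test named in the methods, against 2.07% and 0.397%. A probe that met the detection rule only through the aortas in which it was high had to differ, so these counts are a description and not support for a difference. Of the 8 probes detected on every array, which did not depend on that, 4 were higher (IGKV1-110, IGKV4-61, IGKV6-17 and IGKV6-23). The same 4 were higher in a fit of only the 15709 probes detected on every array, of which 1802 were higher. The median difference of the 49 was 1.83 (3.55-fold), against -0.01 over all tested probes, and 48 of 49 lay above 0, against 48.7% of all probes. The 25 differences ranged from 1.35 to 3.39. All AAA aortas lay above all no AAA aortas for 16 of the 49, against 3.98% of all tested probes, and below them for 0, against 2.39%.

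Family 6 had 5 of its 6 kept probes higher in AAA. IGKV6-15 had levels of 3.18, 2.44, 6.17, 4.18 and 3.06 in AAA 1 to 5, against a lowest value of -0.10, a median of 0.41 and a highest of 1.45 in no AAA. Every AAA aorta lay above every no AAA aorta, and the difference was 3.39 (SE 0.67, 10.5-fold, limma adjusted p = 0.00194), the largest of the 49. IGKV6-23 had levels of 2.59, 1.83, 6.17, 3.97 and 2.82 in AAA 1 to 5, against 0.23 at the lowest, 0.33 at the median and 1.36 at the highest in no AAA. This probe was detected on all 18 arrays, its groups did not overlap, and the difference was 3.00 (SE 0.69, 8.0-fold, limma adjusted p = 0.00492). IGKV6-25 was detected in all 5 AAA aortas and 1 of 7 no AAA aortas, with levels of 1.92, 2.94, 4.80, 3.42 and 1.18 in AAA 1 to 5 against -0.40 to 0.50 in no AAA (median -0.20), a difference of 2.98 (SE 0.68, 7.87-fold, limma adjusted p = 0.00500). IGKV6-17 separated too, with AAA levels of 1.47, 2.96, 4.40, 3.51 and 1.38 against no AAA levels of 0.25 to 0.82 (median 0.45) and a difference of 2.24 (SE 0.59, limma adjusted p = 0.0120). IGKV6-14 was the other called member of this family. The exception was IGKV6-20, whose levels were 0.33, 0.08, 3.31, 0.35 and 0.52 in AAA 1 to 5 and -0.10 to 1.31 in no AAA. Only AAA 3 stood above the no AAA range for that probe, and the difference was 0.53 (SE 0.70, limma adjusted p = 0.653).

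Family 4 was the largest, with 13 of its 30 probes kept, and 10 of these 13 were higher in AAA. Its levels differed widely among the AAA aortas. IGKV4-61 had levels of 3.55, 1.08, 6.76, 5.63 and 2.97 in AAA 1 to 5, against 0.33 at the lowest, 0.78 at the median and 1.80 at the highest in no AAA. AAA 2 lay within the no AAA range and the other 4 AAA aortas above it, and the difference was 3.10 (SE 0.78, 8.58-fold, limma adjusted p = 0.00928). IGKV4-57 had levels of 2.77, 0.28, 6.06, 4.72 and 2.15 in AAA 1 to 5, against -0.02 to 1.26 (median 0.34) in no AAA. Here too AAA 2 was low, and the difference was 2.74 (SE 0.77, 6.69-fold, limma adjusted p = 0.0166). IGKV4-68, the probe that led in AAA 5, had levels of 2.11, 0.05, 4.70, 4.48 and 2.41 in AAA 1 to 5 against -0.41 to 1.07 in no AAA (median 0.20), a difference of 2.53 (SE 0.69, limma adjusted p = 0.0139). For IGKV4-71 no array of the no AAA group detected the probe, so only a bound can be given, at least 2.14-fold higher in AAA (limma adjusted p = 0.0367). Such a bound sets the mean of the brighter group against, on each array of the other group, the lowest level of any detected probe or the probe's own level, whichever is higher. It leaves out the spread between aortas. A probe with such a bound met the detection rule without any array of that other group, so its p-value is a description. IGKV4-91 and IGKV4-52 did not pass (differences of 1.1 and 1.13, limma adjusted p = 0.281 and 0.0890).

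Some kept probes held nearly the same level in all aortas. IGKV4-51, detected on all 18 arrays, ranged from 0.50 to 0.81 in AAA aortas, 0.52 to 0.87 in no AAA aortas, and 0.43 to 0.66 in the saline aortas. Its AAA minus no AAA difference was -0.05 (SE 0.08, limma adjusted p = 0.678). IGKV1-99, also detected on all 18 arrays, ranged from 0.48 to 0.69 in AAA aortas, 0.37 to 0.56 in no AAA aortas, and 0.35 to 1.49 in the saline aortas, where the other 5 aortas reached at most 0.44. Its difference was 0.09 (SE 0.14, limma adjusted p = 0.712). IGKV3-3, detected on 5 arrays, stayed between 0.01 and 0.32 in the whole set, with a difference of 0.02 (SE 0.06, limma adjusted p = 0.831).

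In family 1, IGKV1-117 had levels of 2.04, 3.07, 4.70, 4.60 and 2.54 in AAA 1 to 5, against -0.21 at the lowest, -0.02 at the median and 1.40 at the highest in no AAA. The groups did not overlap, and the difference was 3.02 (SE 0.64, 8.11-fold, limma adjusted p = 0.00289). IGKV1-110 had levels of 1.95, 3.17, 4.60, 4.53 and 2.60 in AAA 1 to 5, against 0.44 to 1.50 (median 0.88) in no AAA. The groups were again apart, with a difference of 2.42 (SE 0.57, 5.34-fold, limma adjusted p = 0.00601). IGKV1-131 and IGKV1-132, which are next to each other in RefSeq's order of segments, had nearly the same profile. IGKV1-131 was at 0.29, 2.96, 2.29, 3.19 and 0.72 in AAA 1 to 5 and at 0.04 to 0.31 in no AAA (limma adjusted p = 0.143), and IGKV1-132 at 0.41, 2.80, 2.20, 3.20 and 0.62 in AAA 1 to 5 and at -0.33 to 0.49 in no AAA (limma adjusted p = 0.118). For both, saline 2 was the highest aorta of all, at 6.34 and 6.30.

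**Figure D2:**
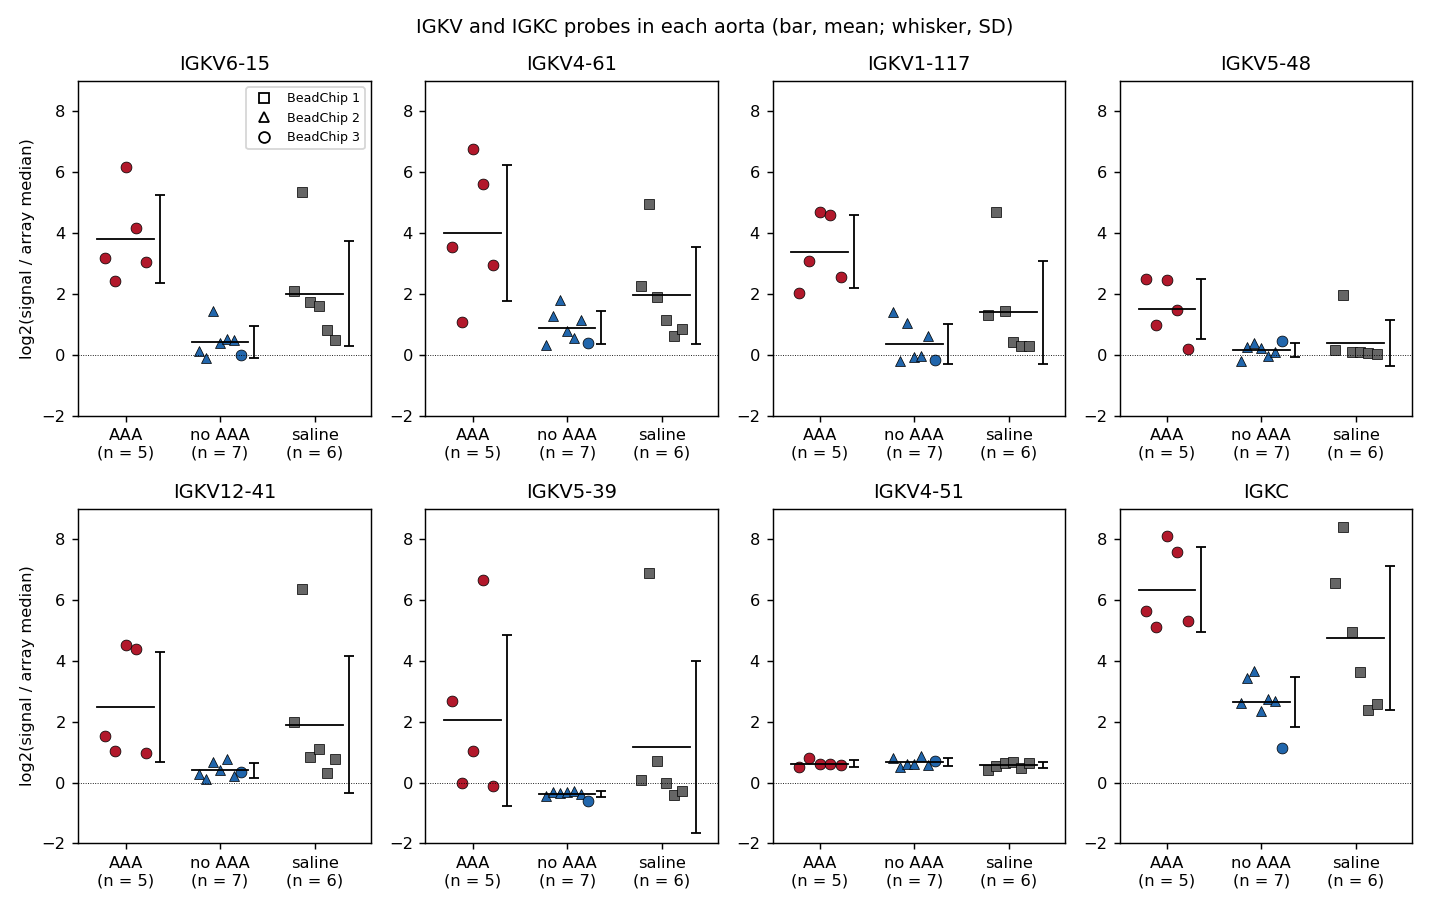
Levels of 7 IGKV probes and the kappa constant probe (IGKC) in each aorta, as log2 of signal over array median; bars are group means, whiskers SD, symbols the BeadChip. For IGKV6-15 the AAA aortas lay between 2.44 and 6.17 and the no AAA aortas between -0.10 and 1.45, while IGKV4-51 stayed between 0.43 and 0.87 in all 18 aortas.

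The other families had smaller counts. In family 8, 3 of 5 kept probes were higher in AAA, IGKV8-28 among them with levels of 2.10, 1.26, 4.29, 2.44 and 0.68 in AAA 1 to 5 against 0.01 to 0.92 (median 0.21) in no AAA, a difference of 1.84 (SE 0.54, limma adjusted p = 0.0215). IGKV8-30 of the same family did not pass (1.21, SE 0.81, limma adjusted p = 0.326). Its level was 2.89 in no AAA 2 and -0.32 in AAA 1. In family 9, 2 of 3 were higher, and in families 2, 3 and 5, 1 each of 1, 4 and 3. IGKV5-48 had levels of 2.48, 0.98, 2.47, 1.46 and 0.19 in AAA 1 to 5, against -0.20 to 0.45 in no AAA (median 0.22). AAA 5 lay within the no AAA range, and the difference was 1.35 (SE 0.36, 2.56-fold, limma adjusted p = 0.0123). IGKV2-137 was detected in 4 AAA aortas and in none of no AAA, and was at least 2.27-fold higher in AAA (limma adjusted p = 0.0292). This probe met the detection rule through AAA and saline aortas alone, so its p-value is a description too. None of the 3 kept family 12 probes passed, although all 3 were apart between the groups. IGKV12-41 had levels of 1.52, 1.03, 4.51, 4.37 and 0.98 in AAA 1 to 5 against 0.11 to 0.77 (median 0.34) in no AAA, a difference of 2.08 (SE 0.83, limma adjusted p = 0.0879). The shared spread of that probe in the fit included saline 2, at 6.37. Families 13, 14, 17 and 19 had 2, 1, 2 and 1 kept probes, of which 0 passed, and families 7, 10, 11, 15, 16 and 18 had no kept probe.

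Of the probes detected on few arrays, IGKV5-39 had the widest range. It had levels of 2.69, -0.02, 1.04, 6.65 and -0.10 in AAA 1 to 5, against -0.61 to -0.29 in no AAA, where no array detected it, and 6.90 in saline 2. Its bound was 3.68-fold higher in AAA, but the difference did not pass (limma adjusted p = 0.144). That difference was 2.43, and as low as 1.28 with 1 array left out. IGKV3-2, also detected in none of no AAA, had a bound of 2.65-fold higher in AAA and did not pass either (limma adjusted p = 0.116). IGKV19-93, IGKV3-4 and IGKV9-119 had differences of 0.75, 0.58 and 0.35 (limma adjusted p = 0.273, 0.400 and 0.319), and for IGKV3-4, detected in none of no AAA, the bound was at least 1.01-fold.

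The count of 25 depended on the arrays that stood apart. It was 10 without AAA 3, 15 without AAA 4, 22 without no AAA 7 and 35 without saline 2, which enters through the shared spread. All 10 and all 15 were among the 25. With normexp background correction it was 0 (34 at an unadjusted p under 0.05), where 20 of all tested probes were higher, and with the test named in the methods, adjusted in the same way, it was also 0 (22 unadjusted). Within BeadChip 3, where AAA 1 to 5 can be set against no AAA 7 alone, every AAA aorta lay above no AAA 7 for 41 of the 49 probes, against 29.3% of all tested probes. No AAA 7 was the lowest aorta of all for 11 of the 49 probes and for the kappa constant probe. The 49 had also met the detection rule partly through AAA aortas. The count within BeadChip 3 is therefore a description and not a separate check. The median over the 49 of each AAA aorta minus no AAA 7 was 1.18, 0.59, 3.94, 3.14 and 0.75 for AAA 1 to 5. With BeadChip as a fixed block, which leaves this single no AAA array to carry the comparison, 5 probes passed (IGKV1-110, IGKV1-117, IGKV3-9, IGKV6-15 and IGKV6-25).

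**Figure D3:**
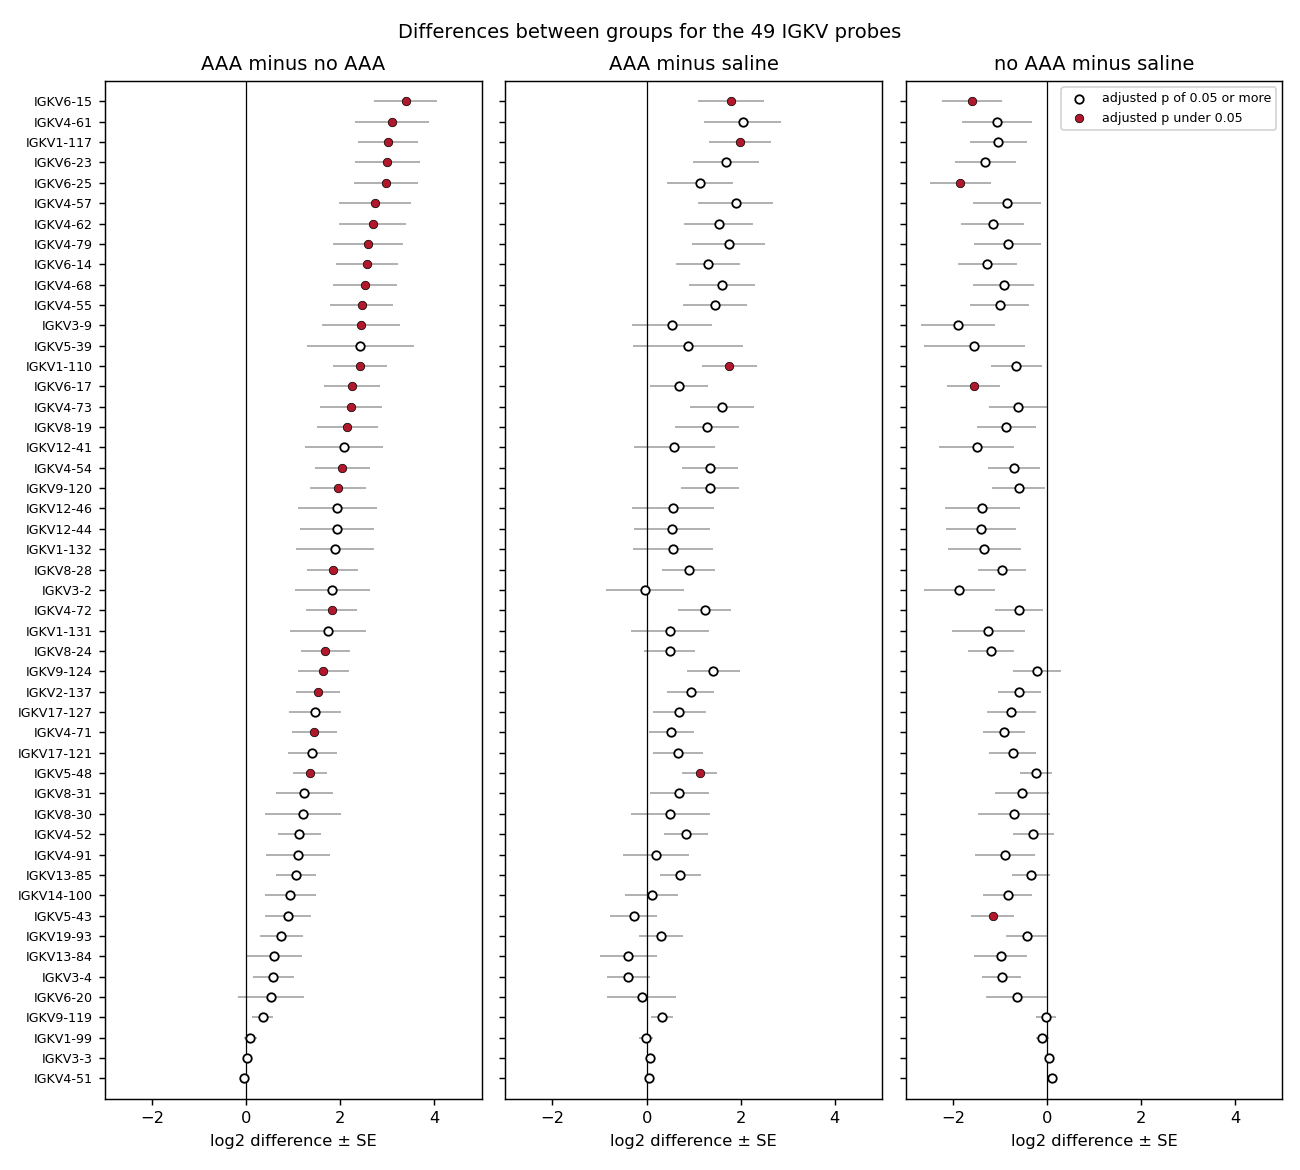
Differences of the 49 IGKV probes for AAA minus no AAA, AAA minus saline and no AAA minus saline (log2, points with SE), ordered by the first, with filled points at an adjusted p under 0.05. In the left panel 25 points are filled, in the middle and right panels 4 each, and the points of the right panel lie mostly below 0.

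Between AAA and saline few IGKV probes differed beyond the spread. At an adjusted p under 0.05, 4 of the 49 were higher in AAA and 0 lower, against 30.5% of all tested probes higher and 9.22% lower, so the share of IGKV probes (8.16%) lay below the background. Groups did not overlap for 0 of the 49 in either direction, against 16.2% of all probes with AAA higher and 5.24% with AAA lower. At the study's threshold 16 were higher by limma's p, against 3.69%, and 1 by the methods' test, against 3.48%. The median difference was 0.70, against 0.13 over all probes, a shift of the whole array that was read as the baseline. IGKV1-117 was higher by 1.99 (SE 0.66, 3.97-fold, limma adjusted p = 0.0219), with saline levels of 0.28 at the lowest, 0.87 at the median and 4.70 in saline 2. IGKV1-110 was higher by 1.76 (SE 0.59, 3.39-fold, limma adjusted p = 0.0229), with saline levels of 0.60, 1.12 and 4.59 at the lowest, the median and the highest. For both, the other 5 saline aortas lay below all 5 AAA aortas, and saline 2 lay next to the highest AAA aortas. IGKV6-15 was higher by 1.79 (SE 0.70, limma adjusted p = 0.0471) and IGKV5-48 by 1.13 (SE 0.37, limma adjusted p = 0.0214). Without saline 2 the count was 30, without AAA 2 it was 14, without AAA 5 it was 7, without saline 6 it was 2, without AAA 4 or without saline 5 it was 1, and without AAA 3 it was 0.

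No AAA aortas had lower kappa levels than saline aortas on average, in the opposite direction to most of the array. Of the 49 probes 0 were higher and 4 lower in no AAA at an adjusted p under 0.05, against 35.0% of all tested probes higher and 10.1% lower, so the share lower (8.16%) was near the background. The median difference was -0.89, against 0.15 over all probes, and 2 of 49 lay above 0, against 71.0% of all probes. IGKV6-25 had levels of -0.40 to 0.50 in no AAA (median -0.20), against -0.31 to 5.09 in saline (median 1.22), a difference of -1.84 (SE 0.65, limma adjusted p = 0.0267). IGKV6-15 differed by -1.60 (SE 0.64, limma adjusted p = 0.0480) and IGKV6-17 by -1.55 (SE 0.56, limma adjusted p = 0.0309). For IGKV6-17 only saline 3 and saline 6 lay within the no AAA range of 0.25 to 0.82. IGKV5-43, detected in none of no AAA and in 3 of 6 saline aortas, was at least 1.67-fold lower in no AAA (limma adjusted p = 0.0471). It met the detection rule through AAA and saline aortas alone, so that p-value is a description. Groups were apart for 1 of 49 probes, IGKV17-121, against 5.39% of all probes, and that probe did not pass (limma adjusted p = 0.230). Without saline 2 the count of lower probes was 0 and the median difference -0.33. The count was 1 without saline 1 or without no AAA 4, 7 without saline 5, 8 without saline 6, and 2 without any 1 of no AAA 1, 2, 5, 6 and 7 or without AAA 5. These 3 comparisons share their groups, so they are not independent of each other.

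The probe that stood furthest above its own mean differed between aortas. In each aorta the probes were set against their own mean over the 18 aortas, and the highest one was recorded. In AAA 1 IGKV4-91 led, at 1.89 above its mean, followed by IGKV5-39 (1.87) and IGKV5-48 (1.86). In AAA 2 IGKV1-131 and IGKV1-132 led, at 1.91 and 1.87 above their means. In AAA 3 IGKV4-61 led, at 4.65 above its mean, in AAA 4 IGKV5-39, at 5.84, and in AAA 5 IGKV4-68, at 1.18. Thus the 5 AAA aortas had 5 different leading probes, from families 1, 4 and 5, but most leads were narrow. IGKV4-57 followed in AAA 3 (4.56) and IGKV6-15 in AAA 5 (1.17). Only in AAA 4 was the next probe well behind, at 3.62. AAA 4 and saline 2, both high across most of the 49, shared the same leading probe. Among saline aortas, IGKV3-2 led in saline 1, at 4.48 above its mean, IGKV5-39 in saline 2, at 6.09, IGKV8-30 in saline 3, at 2.73, and IGKV6-25 in saline 4, at 0.34. In no AAA aortas the leading probe was mostly close to its mean, at 0.12 to 0.59 in 6 of 7 aortas, with the flat probes IGKV4-51 and IGKV3-3 leading in 4 of them and IGKV9-119 and IGKV6-20 in the other two. The exception was no AAA 2, where IGKV8-30 stood 1.95 above its mean. In saline 5 and saline 6 the leading probes were IGKV1-99 (-0.11) and IGKV8-28 (0.23).

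Family medians differed between aortas. The median deviation of the 13 family 4 probes was 1.13, -0.86, 3.40, 2.81 and 0.59 in AAA 1 to 5, and that of the 5 family 1 probes was -0.07, 1.52, 1.27, 2.28 and 0.14. Family 4 was therefore below its mean and family 1 above it in AAA 2, the reverse of AAA 1. Family 3 stood at 2.64 in saline 1, where family 4 was at 0.14 and family 1 at -0.20. In saline 1, IGKV3-2 reached 5.35 and IGKV3-9 reached 5.15, higher than in any AAA aorta, where the highest values were 2.84 and 3.89. Saline 2 was led by family 12 (4.89), AAA 3 by family 6 (3.52) and AAA 4 by family 9 (3.08). A family median did not describe every member, since in AAA 4 the family 5 median was 1.14 while IGKV5-39 of that family stood 5.84 above its mean. Family 8 stood above its mean in saline 3 (0.85) and no AAA 2 (0.43), where the other families with 3 or more kept probes lay below theirs. Since related probes may bind the same transcripts, how many V segments lie behind such a family pattern was not tested.

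**Figure D4:**
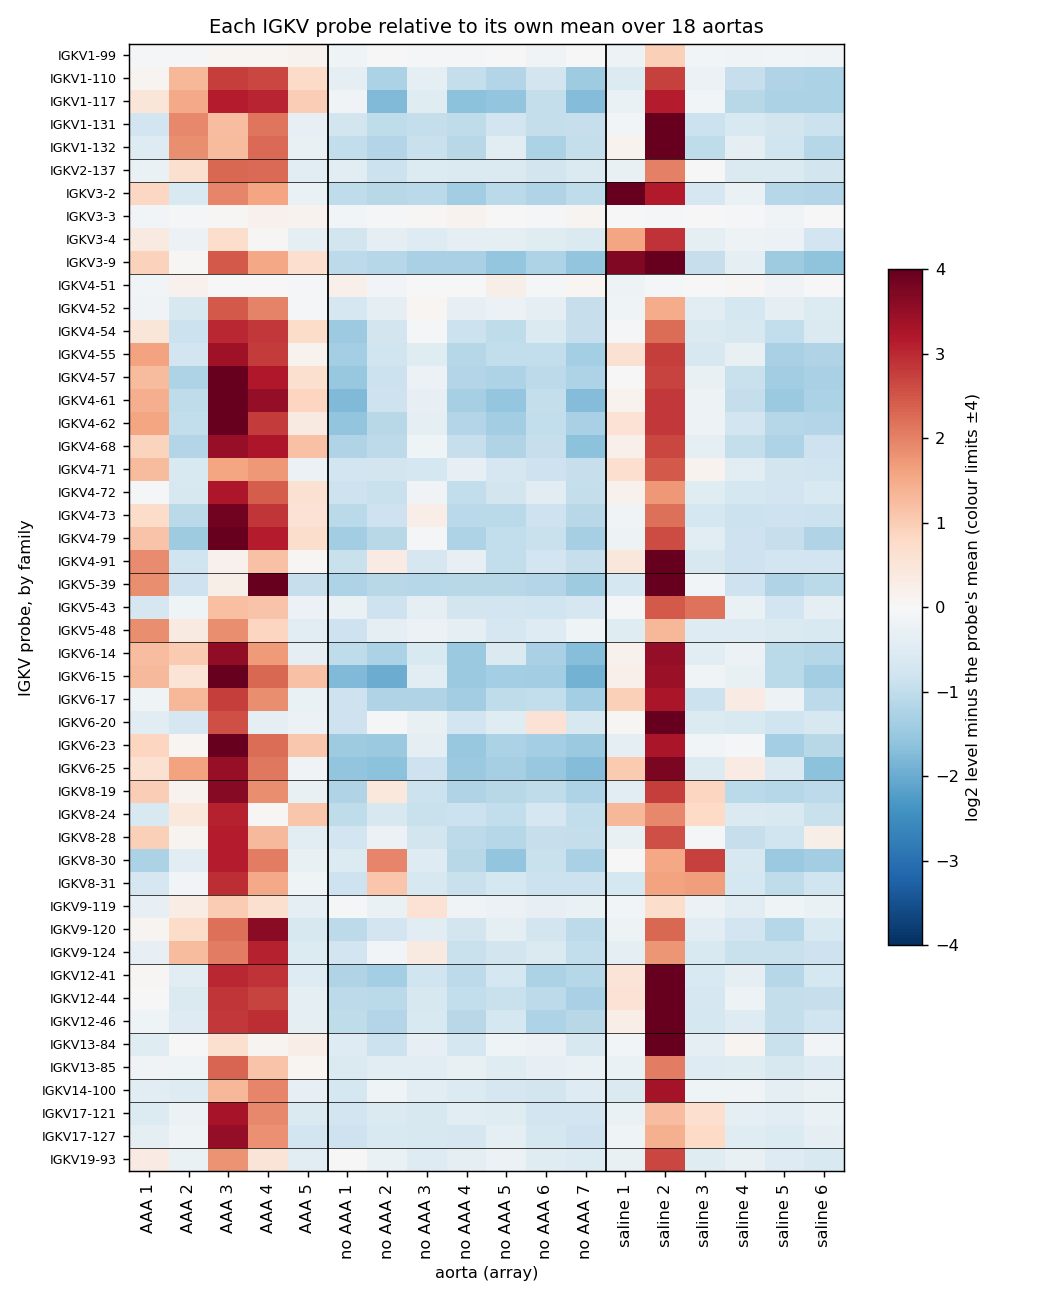
Each of the 49 IGKV probes (rows, by family) in each of the 18 aortas (columns, AAA, no AAA and saline from left to right) as the log2 level minus the probe's mean over all aortas. AAA 3, AAA 4 and saline 2 are high across most rows, saline 1 is high mainly in family 3 (IGKV3-2 by 4.48), and IGKV4-51, IGKV1-99 and IGKV3-3 are nearly flat.

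**Figure D5:**
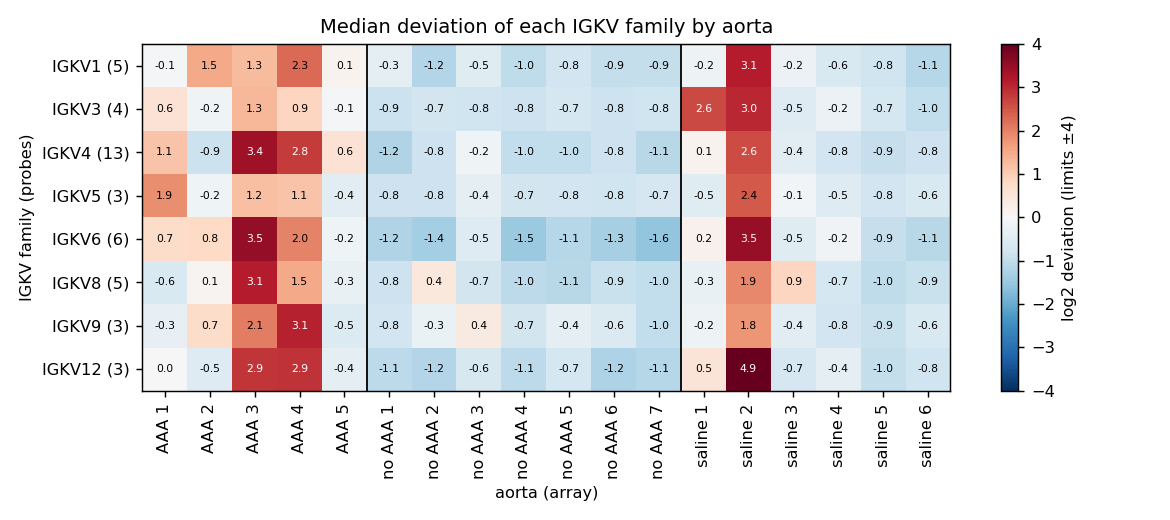
Median deviation (log2) of the kept probes of each IGKV family with 3 or more kept probes, by aorta, with the number of probes in brackets. Family 4 stood at 3.40 in AAA 3 and -0.86 in AAA 2, and family 3 at 2.64 in saline 1.

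The constant segment is shared by every kappa transcript, and its probe (IGKC) gave the same order of groups. IGKC had levels of 5.63, 5.11, 8.10, 7.57 and 5.30 in AAA 1 to 5, against 1.13 in no AAA 7 and 2.35 to 3.68 in the other no AAA aortas. In saline it had levels of 6.57, 8.39, 4.94, 3.64, 2.40 and 2.57. All AAA aortas lay above all no AAA aortas, and saline 1 and saline 2 lay within or above the AAA range. The difference was 3.68 between AAA and no AAA (SE 0.84, limma adjusted p = 0.00500), 1.59 between AAA and saline (SE 0.87, limma adjusted p = 0.156) and -2.09 between no AAA and saline (SE 0.80, limma adjusted p = 0.0401). No probe on the array had a name beginning with IGKJ, the kappa joining segments.

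Other antibody probes were counted for comparison. They met the same detection rule, so their counts are a description too. Of 30 tested heavy chain variable (IGHV) probes out of 136, 10 were higher in AAA aortas than in those with no AAA, against 10.8% of all tested probes. Their median difference was 0.92. Only 1 of the 30 was higher in AAA aortas than in saline, against 30.5% of all tested probes. Of 3 lambda constant probes, the alternative to kappa, 1 was higher in AAA aortas than in those with no AAA (IGLC1, by 1.51, limma adjusted p = 0.0466). Among 3 tested heavy chain constant probes IGHG2C, of a switched antibody class, was higher by 2.59 (limma adjusted p = 0.0438). IGHM, the class made before switching, had a difference of 1.70 (limma adjusted p = 0.0779) and IGHA, the mucosal class, of 0.21 (limma adjusted p = 0.137). IGHG2C stood at 4.82 and 4.53 in saline 1 and saline 2 and at -0.21 to 0.35 in the other saline aortas.

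Markers of B cells and of other cell types were read beside these levels, and their part in the result was not tested. Only genes that the study itself had listed as different could be named, so the marker counts are not independent evidence. Of all tested probes, 10.8% were higher in AAA aortas than in those with no AAA. Of the 18 B cell markers listed, 4 had a named probe, and 3 of the 4 were higher in AAA aortas than in those with no AAA (Blnk, Cd72 and Tnfrsf13b). Their summed linear level ranged from 37.3 to 94.7 in AAA aortas, 13.4 to 24.0 in no AAA aortas, and 9.40 to 41.6 in the saline aortas. Cd79b, a part of the B cell receptor complex, was highest in saline 2 (4.40) and lowest in no AAA 7 (0.65), and had a difference of 1.21 between AAA and no AAA (limma adjusted p = 0.0584). Of the 12 plasma cell markers listed, 3 had a named probe. They summed to 9.15 to 17.3 in AAA aortas, 5.31 to 8.23 in no AAA aortas, and 6.37 to 14.0 in the saline aortas. Between AAA and no AAA, Sdc1 and Slamf7 were higher in AAA, and Irf4 did not pass (0.36, limma adjusted p = 0.366). Among saline aortas, Irf4 was highest in saline 1 (3.45), and Sdc1 was lowest in saline 2 (0.74), where kappa levels were high. Of the 10 T cell markers listed, 2 had a named probe, Thy1 and Cd3d. They summed to 34.4 to 89.6 in AAA aortas, 11.7 to 41.5 in no AAA aortas, and 17.9 to 28.0 in the saline aortas. Thy1 gave most of that sum, with a mean level of 5.72 in AAA aortas against 2.02 for Cd3d. Between AAA and no AAA, Thy1 was higher (by 1.23, limma adjusted p = 0.00235) and Cd3d did not pass (1.02, limma adjusted p = 0.0692). Genes of lymphoid stroma include Cxcl13 and Ccl21a, which draw B cells and other lymphocytes into lymphoid tissue. Of 7 listed, 5 had a named probe. They summed to 125 to 262 in AAA aortas, 18.2 to 68.4 in no AAA aortas, and 46.9 to 186 in the saline aortas. All 5 were higher in AAA aortas than in those with no AAA. Ccl21a, Ccl21b and Ccl21c had nearly the same differences (1.84, 1.82 and 1.79) and were not read as separate results. Cxcl13 stood at 4.24 in saline 2 and 0.42 in no AAA 7. Macrophage markers summed to 119 to 384 in AAA aortas, 53.6 to 132 in no AAA aortas, and 46.4 to 67.2 in the saline aortas. All 6 named macrophage genes were higher in AAA aortas than in those with no AAA. Against saline, no AAA aortas had a lower median IGKV level, and 4 of these 6 genes were higher there, against 35.0% of all tested probes. In that comparison 1 of the 4 B cell genes was also higher (Cd72, by 1.08). These lists are too short to be read against that share. Of the 3 plasma cell genes, Sdc1 was higher (by 0.79) and Irf4 lower (-1.39). Irf4 was lower in AAA than in saline too (-1.03). Fat markers summed to 87.5 to 361 in AAA aortas, 40.5 to 396 in no AAA aortas, and 502 to 569 in the saline aortas, so every saline array lay above every other array, and 0 of the 3 named genes passed between AAA and no AAA. Acta2, the smooth muscle actin that marks the vessel wall, was detected on all 18 arrays, at 2.74 to 4.62 in AAA aortas, 4.85 to 5.39 in no AAA aortas, and 3.34 to 4.05 in the saline aortas.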

How the data were processed

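RNA of whole aortas was hybridised to Illumina Mouse WG-6 BeadChips, and the authors summarised beads to probes with BeadStudio 2. They deposited 1 table of average signal intensity, not normalised, with a detection score per probe and array, a fraction between 0 and 1 in the deposited table, and bead numbers and bead errors per the file headers. The table held 46657 lines and 146 columns. Repeated lines of a probe were averaged and 4 bacterial controls left out. A further 72 columns of array values (over all 18 arrays) were not used here, nor was a deposited matrix of ratios, in which 12 of 18 columns held the values of another array. Arrays were matched to labels by array number, which gave 530 of 530, 1195 of 1195 and 654 of 654 of the study's listed folds within 2%; no such value is printed.

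Each intensity was divided by its array's median and expressed as log2. Limma 3.58.1 (R 4.3.3) was run on probes with a score over 0.95 on 5 or more arrays (3 group means, eBayes with trend, Benjamini-Hochberg). The fit was also run on simulated data with known differences, and the outcome is not given here. Named probes are the 8 with the highest mean level; in each comparison the 6 largest positive and 3 largest negative differences among those past an adjusted p of 0.05; members detected on the fewest arrays and IGKV probes just outside the rule (ties named in part); and the leading probe of each array. IGKV1-132, IGKV3-9, IGKV4-71, IGKV2-137, IGKV5-43, IGKV6-14, IGKV17-121 and IGKV8-31 were named after their values were seen. The members and gene lists were chosen with earlier results of these data known. Alternatives were quantile normalization, normexp, other filters, blocks, array weights, the methods' t-test and leaving out each array. Each mouse is a separate sample. Python 3.11.15, pandas 2.3.3, numpy 2.4.6, matplotlib 3.10.9 and statmod 1.5.0 were also used.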

Additional observations from a re-analysis of the deposited data

Results flagged for a closer look

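Named IGKV probes were searched for an aorta far from the rest of its group, by the gap to the nearest aorta as a share of the group's range. Of 81 groups of values searched, 25 had such an aorta. The named probes include those that led an array, and all probes share the same 18 arrays. The number was therefore not set against a chance rate. Saline 2 accounted for 18 of them, no AAA 3 for 4, no AAA 2 for 2 and AAA 3 for 1.

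Saline 2 was far above the other saline aortas in the median level of the 49 probes (3.76). It was also far above them for IGKV5-39 (6.90), IGKV12-41 (6.37), IGKV1-131 (6.34), IGKV6-15 (5.35), IGKV6-23 (5.02) and IGKV6-20 (4.93). The same held for IGKV1-117 (4.70), IGKV4-91 (4.68), IGKV1-110 (4.59), IGKV4-57 (4.20), IGKV4-68 (3.91), IGKV8-28 (3.70) and IGKV19-93 (2.95). At lower levels it held for IGKV5-48 (1.96), IGKV4-52 (1.76), IGKV1-99 (1.49) and IGKV9-119 (0.64).

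No AAA 3 stood above the other no AAA aortas for IGKV6-15 (1.45), IGKV6-23 (1.36), IGKV9-119 (0.52) and IGKV6-25 (0.50). No AAA 2 did so for IGKV8-30 (2.89) and IGKV8-28 (0.92), both of family 8. AAA 3 did so for IGKV6-20 (3.31).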

How the results depend on the processing

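Counts of IGKV probes at an adjusted p under 0.05 moved with several settings, and the cause was not tested except where the setting itself leaves fewer samples or probes. Higher in AAA than in no AAA were 25, and 0 with normexp background correction (20 of all probes called higher), 0 with the adjusted methods' t-test, 4 of 8 among probes detected on all 18 arrays, 12 with the replicate block and 5 with BeadChip as a fixed block, which leaves out saline. Higher in AAA than in saline were 4, and 16 at the study's threshold, 0 with normexp, 1 with normexp followed by quantile normalization (chosen after seeing the data), 2 among probes detected on all arrays, 1 with BeadChip as a random block, 0 with only the 2 groups compared and 0 with the methods' t-test. Lower in no AAA than in saline were 4, and 7 at the study's threshold (0 there by the methods' t-test), 28 with normexp (which moved the median of all probes to -0.80), 0 with normexp and quantile normalization, 1 with no filter on dim probes, 1 among probes detected on all arrays, 2 with eBayes without trend, 0 with BeadChip as a random block, 2 with the replicate block, 7 with only the 2 groups compared and 0 with the methods' t-test. No other count of called probes moved by over 1.5 times with all arrays kept. The median differences moved by less than the spread between aortas under every setting, a loose limit for the smaller differences. With normexp the median AAA minus saline difference was 0.08, against 0.70, and 27 of the 49 probes lay above 0, against 43. The median of all probes was then -0.74.

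Leaving out 1 array at a time gave 10 to 35, 0 to 30 and 0 to 8 for these counts, 0 to 0 for the counts in the opposite directions, and median differences of 1.43 to 2.11, 0.36 to 1.38 and -1.10 to -0.33. A detection score over 0.99 lowered the median number of detected IGKV probes to 28 in AAA aortas, 3 in no AAA aortas, and 14.5 in the saline aortas.

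Of the named probes, IGKV3-3 turned to -0.088 with the fixed block (-0.010 to 0.058 with 1 array left out), IGKV6-20 to -0.070 without AAA 3 (highest 0.74, without AAA 2) and IGKV4-51 to 0.0042 with normexp, all AAA minus no AAA, and none of these passed the test. In the other checks of named probes 830 kept their call, 111 lost and 16 gained it. Without t-test or normexp, IGKV6-15, IGKV1-110, IGKV1-117 and IGKV6-25 stayed called between AAA and no AAA under each alternative run. Replicate numbers did not pair the arrays: same-numbered arrays correlated over 0.1 in 2 of 5, 1 of 5 and 1 of 6 pairs (from -0.19 to 0.29), so a call lost with that block is not read as a weaker effect. Signals near background limit what dim probes can show.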
